A study of Homo sapiens with 10 samples.

Results

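The genes described here copy DNA or prepare cells for S phase. They are 39 genes, taken as a list of replication and S phase genes and found among the arrays' probe sets by their platform gene symbol. The rule was to take the brightest probe set by mean over all arrays where a symbol had more than 1. Each of the 39 had 1 probe set, so the rule made no choice among them. All 39 were measured, of 17687 gene symbols and 21448 gene probe sets in all. The study compared human neuroblastoma cells exposed to BG-P1600-TAT, a polymer conjugate, with cells exposed to buffer, on 10 Affymetrix whole-transcript arrays of total RNA. SK-N-FI control cells (2 arrays, numbered 1 and 2) received PBS and SK-N-FI treated cells (2 arrays, 1 and 2) received BG-P1600-TAT at 30 µM, each for 48 h. SK-N-AS control cells (3 arrays, numbered 25, 26 and 27) and treated cells (3 arrays, 28, 29 and 30) had the same exposures. The SK-N-AS titles shorten the compound to BG-P-TAT, which was read here as BG-P1600-TAT. The labels call SK-N-AS a primary cell line and name no other agent or genetic change in any group.

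Replication begins when the origin recognition complex, with CDC6 and CDT1, loads the ring-shaped MCM helicase onto DNA in G1. In S phase CDC45 and the GINS complex join MCM and open the helix, primase and the polymerases copy the strands, and the PCNA ring, loaded by the RFC complex, holds the polymerases in place. Many of these genes are targets of E2F transcription factors, which cyclin E and its kinase release from restraint, so that their transcripts are most abundant in dividing cells.

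Promoter sequence is shown first, since genes of this kind often carry E2F sites and CCAAT boxes near their start. RefSeq promoter windows on GRCh38.p14, from 250 bases before to 50 bases after the transcription start, held 35 of the 39 genes, and MCM4, MCM5, GINS4 and CCNE2 are named only. An E2F-type motif (TTTCCCGC, TTTCGCGC, TTTGCCGC or TTTGGCGC, searched on both strands, with overlapping matches allowed) was present in 19 of 35 genes (54.3%), against 3.99% of the 27305 genes with such a window. The CCAAT motif, on either strand, was present in 20 of 35 (57.1%), against 39.7% of all genes. A gene was counted once if any of its windows held the motif (35116 windows in all). The 27305 genes include genes of every kind and some not measured on these arrays. A match is a match of letters and not a measured site, and the absence of one says only that these letters are not in the window.

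The sequences below run from 140 bases before to 10 bases after the start and are written 5′ to 3′ along the gene, with matches to either motif in capitals. GINS2, RFC3, POLE2, E2F2 and RRM2 are shown because they were among the genes with the largest difference between the lines. The first 4 of them each held 1 E2F-type match in this stretch, and RRM2 held 3 CCAAT matches and no E2F-type match. MCM6, a subunit of the MCM ring, is shown because its stretch held both motifs, with 2 overlapping E2F-type matches between 2 CCAAT matches. GINS3, CCNE1 and RFC2 are shown because their direction between the lines turned with the scaling. GINS3 held 1 E2F-type match and the other two neither motif. The positions are chr16:85688945-85689094 (minus strand) for GINS2, chr13:33818009-33818158 (plus strand) for RFC3, chr14:49688205-49688354 (minus strand) for POLE2, chr1:23531224-23531373 (minus strand) for E2F2, chr2:10122599-10122748 (plus strand) for RRM2, chr2:135876434-135876583 (minus strand) for MCM6, chr16:58392331-58392480 (plus strand) for GINS3, chr19:29811851-29812000 (plus strand) for CCNE1 and chr7:74254390-74254539 (minus strand) for RFC2.
GINS2: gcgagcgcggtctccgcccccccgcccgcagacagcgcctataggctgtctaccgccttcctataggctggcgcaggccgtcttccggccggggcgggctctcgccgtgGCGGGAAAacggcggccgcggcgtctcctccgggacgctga
RFC3: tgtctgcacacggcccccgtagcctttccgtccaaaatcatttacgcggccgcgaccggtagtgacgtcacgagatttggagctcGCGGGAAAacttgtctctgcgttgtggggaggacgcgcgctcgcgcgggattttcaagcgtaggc
POLE2: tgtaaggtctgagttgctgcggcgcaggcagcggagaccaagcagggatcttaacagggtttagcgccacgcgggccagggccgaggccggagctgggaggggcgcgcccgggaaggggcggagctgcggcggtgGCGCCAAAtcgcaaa
E2F2: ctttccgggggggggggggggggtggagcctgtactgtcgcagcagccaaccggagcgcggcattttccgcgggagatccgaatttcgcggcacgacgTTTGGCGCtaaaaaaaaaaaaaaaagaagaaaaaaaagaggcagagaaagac
RRM2: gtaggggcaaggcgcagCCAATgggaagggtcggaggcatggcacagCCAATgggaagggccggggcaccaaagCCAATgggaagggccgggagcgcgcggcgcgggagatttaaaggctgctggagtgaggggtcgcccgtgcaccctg
MCM6: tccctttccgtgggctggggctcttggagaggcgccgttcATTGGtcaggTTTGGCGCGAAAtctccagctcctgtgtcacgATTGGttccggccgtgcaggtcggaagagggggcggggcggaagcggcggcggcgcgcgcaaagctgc
GINS3: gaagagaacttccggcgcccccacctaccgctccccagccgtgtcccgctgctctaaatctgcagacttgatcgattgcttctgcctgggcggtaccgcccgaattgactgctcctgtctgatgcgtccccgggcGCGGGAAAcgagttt
CCNE1: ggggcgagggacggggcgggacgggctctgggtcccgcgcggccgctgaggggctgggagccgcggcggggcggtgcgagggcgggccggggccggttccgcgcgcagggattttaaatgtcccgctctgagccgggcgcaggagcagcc
RFC2: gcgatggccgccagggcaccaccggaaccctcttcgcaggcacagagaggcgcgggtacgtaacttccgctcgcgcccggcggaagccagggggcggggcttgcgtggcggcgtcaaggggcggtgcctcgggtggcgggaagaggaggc

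Values are log2 signals per probe set, so that a difference of 1 is a 2-fold change, and only the same gene is compared between arrays. The deposited signals of the lines stood on different scales. Per array, the median over gene probe sets was 6.61 to 6.62 for SK-N-FI and 5.75 to 5.81 for SK-N-AS, and the upper quartile 9.88 to 9.96 against 8.11 to 8.31. Differences between the lines are therefore given on the deposited scale and again after quantile normalization over all 10 arrays, which makes the distributions equal. No array was shared between the lines, so cell line and array scale cannot be told apart. Background was set on each array at the 95th percentile of its 612 negative control probe sets, and on SK-N-FI arrays 38.3% to 44.3% of gene probe sets exceeded it, against 32.9% to 39.7% on SK-N-AS arrays. Of 7 noradrenergic neuroblastoma markers measured, 6 were above background on all SK-N-FI and 3 on all SK-N-AS arrays, and of 8 mesenchymal markers 3 and 5. The 5 endothelial and 3 Schwann cell markers measured were above background on no array. Of 5 epithelial markers only CLDN4 exceeded it (3 SK-N-AS arrays), and of 4 leukocyte markers only PTPRC (5 SK-N-AS arrays).

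By this measure 36 of the 39 genes were above background on both SK-N-FI control arrays and 35 on both treated arrays. In SK-N-AS 23 genes were above it on all 3 control arrays and 26 on all 3 treated arrays. A set of 22 genes was above background on all 10 arrays. CDT1, the licensing factor that loads MCM with CDC6, POLD1, the catalytic subunit of DNA polymerase delta, and LIG1, the ligase that joins Okazaki fragments, were above it on none, and their signals say little about their transcripts. In the SK-N-AS controls MCM10, GINS2, POLA1, POLE2, CCNE2, E2F1 and E2F2 were also above background on no array. For such genes a fold is given only as a lower bound, with each SK-N-AS array entered at its background level or at the gene's signal, whichever was higher.

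**Figure D1:**
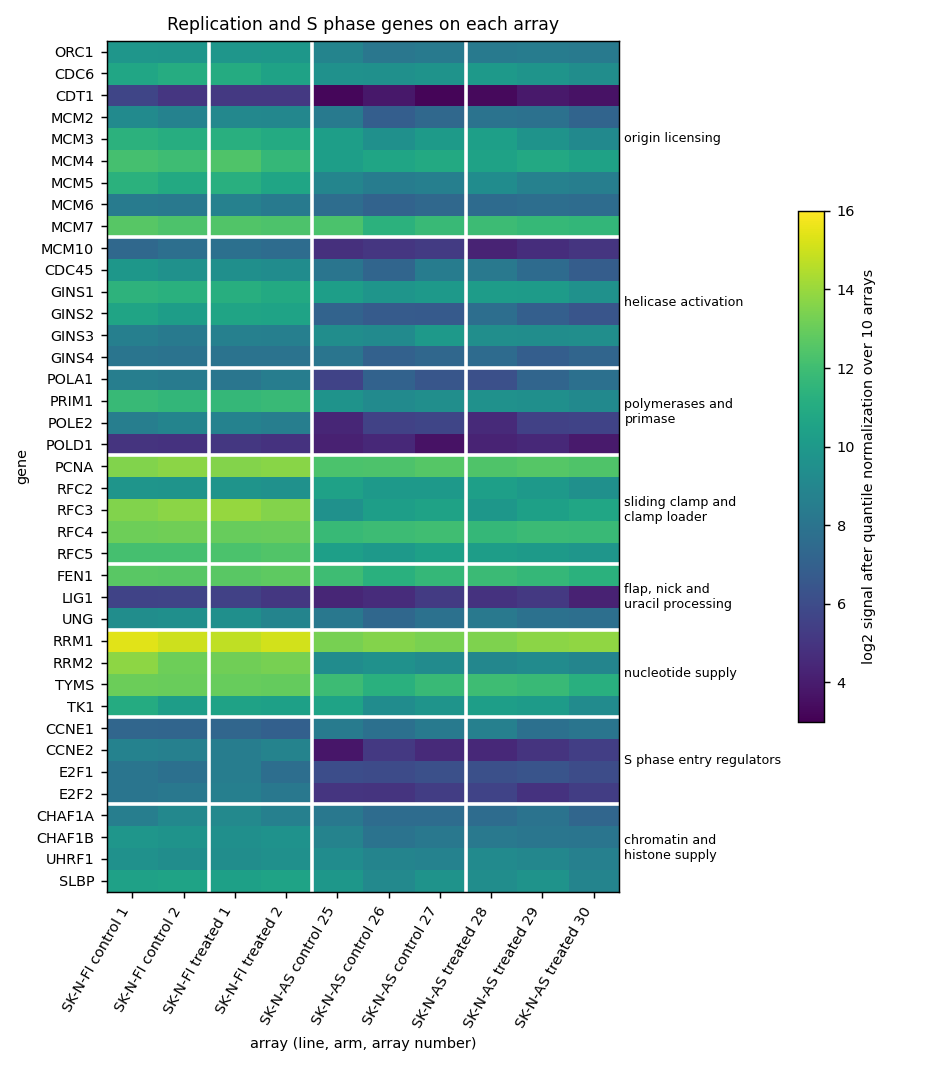
Log2 signal of each of the 39 genes (rows, grouped by role) on each of the 10 arrays (columns) after quantile normalization over all arrays; colour runs from 3 to 16 and is to be read along a row, since levels of different probe sets are not comparable. RRM2, RFC3, GINS2, POLE2, CCNE2 and E2F2 are darker on all 6 SK-N-AS arrays than on all 4 SK-N-FI arrays.

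The first comparison set the control cells of the lines side by side. On the deposited scale 38 of the 39 genes were lower in SK-N-AS and 0 higher (limma, Benjamini-Hochberg adjusted p under 0.05 over all probe sets), with a median log2 difference, SK-N-AS minus SK-N-FI, of -2.92. The 38 include CDT1, POLD1 and LIG1, whose signals were below background on every array. Of all gene probe sets 47.8% were called lower and 11.5% higher, with a median of -0.61. Among the 8171 probe sets above background on every SK-N-FI array, as most of these genes were, 78.7% were called lower and 5.2% higher, with a median of -1.76. That filter rests on SK-N-FI alone and favours probe sets high in that line. Of the 22 genes above background on all 10 arrays, 22 were called lower. Of the 5834 probe sets above it on all 10 arrays, 4122 were called lower and 425 higher, with a median of -1.31. All 39 genes had every SK-N-AS array below every SK-N-FI array, where 73.1% of all probe sets had arrays of the lines that did not overlap in either direction.

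After quantile normalization 32 of the 39 genes were lower in SK-N-AS and 2, GINS3 and CCNE1, were higher, with a median of -1.39. The 32 again include CDT1, POLD1 and LIG1, below background on every array. Of all probe sets 22.5% were then called lower and 24.1% higher, with a median of 0.04. Among those above background on every SK-N-FI array the shares were 35.2% and 23.4% and the median -0.26. Of the 22 genes above background on all 10 arrays, 17 were called lower and 1 higher. Of the 5834 probe sets above it on all 10 arrays, 1271 were called lower and 1911 higher, with a median of 0.19. MCM7, GINS4, RFC2, TK1 and UHRF1 were not called on this scale. In bulk RNA, fewer cells in S phase and less of a transcript in each cell cannot be told apart.

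Licensing genes were lower in SK-N-AS in 9 of 9 cases on the deposited scale (median -2.92) and in 8 of 9 after quantile normalization (median -1.34). This and the role counts below stand beside 47.8% of all probe sets called lower on the deposited scale and 22.5% after quantile normalization. MCM5, a subunit of the MCM ring, read 12.22 and 11.86 on the SK-N-FI control arrays and 8.12, 7.88 and 7.99 on the SK-N-AS control arrays. Its log2 difference of -4.04 was the largest of the licensing genes (limma adjusted p = 9.87e-08), and it was -2.43 after quantile normalization (adjusted p = 3.43e-05). The SK-N-AS arrays lay together, far below both SK-N-FI arrays. ORC1, the ATP-binding subunit of the origin recognition complex, differed by -3.04 and CDC6 by -2.92, and by -1.34 and -1.27 after quantile normalization. The other MCM subunits differed by -1.96 (MCM7) to -3.08 (MCM2) on the deposited scale. MCM7 read 13.33 and 13.14 in SK-N-FI against 11.75, 10.78 and 11.30 in SK-N-AS, and its difference of -0.66 after quantile normalization did not pass (adjusted p = 0.0676). CDT1 differed by -2.28 between signals that were below background throughout.

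Of the 6 helicase activation genes all were lower on the deposited scale (median -3.20), and 4 were lower and 1 higher after quantile normalization. GINS2, the subunit also called PSF2, read 11.56 and 11.27 on the SK-N-FI control arrays. On the SK-N-AS control arrays it read 6.53, 6.29 and 6.23, below background on each. Its log2 difference was -5.06 (limma adjusted p = 1.92e-08) and -3.57 after quantile normalization (adjusted p = 3.69e-06), or at least 21.2-fold and at least 6.97-fold lower in SK-N-AS. The SK-N-FI arrays were all high and the SK-N-AS arrays all low, with a wide gap. MCM10, which helps CDC45 and the polymerases engage, differed by -3.55 and -2.52 on the respective scales, CDC45 by -3.47 and -1.82, and GINS1 by -2.92 and -1.32. For MCM10 the bound was at least 2.74-fold on the deposited scale, and no fold could be given after quantile normalization.

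GINS3, the subunit also called PSF3, read 9.60 and 9.39 in SK-N-FI controls and 8.57, 8.58 and 9.34 in SK-N-AS controls on the deposited scale, a difference of -0.67 (limma adjusted p = 0.0415). After quantile normalization it read 8.61 and 8.38 against 9.38, 9.23 and 10.00, a difference of 1.04 (adjusted p = 0.00496). The arrays of the lines did not overlap on either scale, and the direction was opposite. With array medians set equal the difference was 0.18 (adjusted p = 0.572), so that the direction for GINS3 is not settled by these data. Its call on the deposited scale was also lost (adjusted p = 0.0539 to 0.202) when any 1 of 7 arrays was left out, namely SK-N-FI control 1 or 2, SK-N-FI treated 1 or 2, SK-N-AS control 25 or 26, or SK-N-AS treated 29. GINS4 differed by -2.06 and, after quantile normalization, by -0.52, which did not pass (adjusted p = 0.182).

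All 4 genes of the polymerases and primase were lower in SK-N-AS on both scales (medians -3.62 and -2.15). POLE2, an accessory subunit of the leading strand polymerase epsilon, read 9.55 and 9.88 in SK-N-FI and 4.38, 5.35 and 5.44 in SK-N-AS. The log2 difference was -4.66 (limma adjusted p = 3.32e-07) and -3.49 after quantile normalization (adjusted p = 2.86e-05), at least 6.55-fold and at least 2.13-fold. POLE2 was above background on every SK-N-FI and on no SK-N-AS array. PRIM1, the catalytic subunit of primase, was above background on all 10 arrays and read 12.59 and 12.50 against 8.86, 8.60 and 8.81. Its difference was -3.79 and -2.23 on the respective scales (adjusted p = 1.98e-08 and 8.94e-06), with little spread within either line. POLA1, the catalytic subunit of polymerase alpha, was below background on all SK-N-AS control arrays and at least 5.55-fold and at least 1.82-fold lower there on the respective scales. POLD1 differed by -1.05 and -0.82 between signals below background.

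The sliding clamp and clamp loader genes were lower in 5 of 5 cases on the deposited scale (median -2.47) and in 4 of 5 after quantile normalization (median -1.27). RFC3, a small subunit of the clamp loader, read 14.09 and 14.30 in SK-N-FI and 8.78, 9.68 and 9.90 in SK-N-AS, above background on every array. Its log2 difference of -4.74 (limma adjusted p = 2.35e-07) was -3.51 after quantile normalization (adjusted p = 3.23e-06), 26.7-fold and 11.4-fold lower. PCNA read 14.10 and 14.27 against 11.76, 11.86 and 12.16. The clamp itself was lower in SK-N-AS on both scales, at -2.26 and -1.21 (adjusted p = 1.67e-06 and 0.000441). RFC4 differed by -2.47 and -1.27 and RFC5 by -3.39 and -1.94. RFC2 read 10.83 and 10.76 against 9.69, 9.36 and 9.35 on the deposited scale (-1.33, adjusted p = 0.000448), and 9.80 and 9.71 against 10.45, 10.00 and 10.00 after quantile normalization (0.40, adjusted p = 0.239). RFC2 was thus lower in SK-N-AS on the deposited scale, and its estimate turned direction after quantile normalization.

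FEN1, the nuclease that trims Okazaki fragment flaps, differed by -2.32 and -1.01, and UNG, which removes uracil from DNA, by -3.31 and -1.65. Both were called on both scales, as was LIG1 (-1.33 and -0.87), whose signals were below background.

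Among the nucleotide supply genes was the largest difference of the 39 on the deposited scale. RRM2, the S phase subunit of ribonucleotide reductase, read 14.30 and 13.78 in SK-N-FI controls and 8.52, 8.94 and 8.63 in SK-N-AS controls, above background on every array. Its log2 difference was -5.35 (95% interval -5.86 to -4.83, limma adjusted p = 3.23e-09), 40.7-fold lower in SK-N-AS, and after quantile normalization -4.08 (-4.63 to -3.53, adjusted p = 1.38e-07), 16.9-fold lower. RRM1, the large subunit of the same enzyme, read 15.44 and 15.26 against 12.87, 13.20 and 13.04. Its difference was -2.31 and -1.78 on the respective scales, and the intervals of the 2 subunits did not overlap on either. TYMS, which makes thymidylate, differed by -2.62 and -1.39. TK1, the cytosolic thymidine kinase, differed by -2.39 on the deposited scale, and its -0.75 after quantile normalization did not pass (adjusted p = 0.147), with control array 25 at 10.54 between the SK-N-FI values of 11.01 and 10.22.

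Among the regulators of S phase entry, CCNE2, a cyclin E, read 9.77 and 9.68 in SK-N-FI controls and 3.83, 5.01 and 4.44 in SK-N-AS controls. Its log2 difference was -5.29 (limma adjusted p = 5.93e-08) and -4.21 after quantile normalization (adjusted p = 2.68e-06), at least 6.58-fold and at least 2.14-fold lower. The other cyclin E gene, CCNE1, read 8.11 and 8.07 against 7.63, 7.22 and 7.70. Unlike CCNE2 it was above background on all SK-N-AS arrays, and its -0.58 did not pass (adjusted p = 0.0832). After quantile normalization CCNE1 read 7.29 and 7.24 against 8.40, 7.79 and 8.30 and was higher in SK-N-AS by 0.90 (adjusted p = 0.0225). E2F2, an activator of S phase genes, read 8.97 and 9.18 against 4.92, 4.83 and 5.13, a difference of -4.11 (adjusted p = 4.33e-08) and -3.01 (adjusted p = 2.59e-06), at least 4.21-fold and at least 1.42-fold. E2F1 differed by -3.12 and -1.85, at least 3.61-fold and at least 1.24-fold. On both scales, then, CCNE2, E2F1 and E2F2 were lower in SK-N-AS and below background there. CCNE1 was above background on every array but SK-N-FI treated array 1. Its SK-N-AS control signals of 7.63, 7.22 and 7.70 stood against background levels of 7.23, 7.03 and 6.75.

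Of the chromatin genes, CHAF1A and CHAF1B, subunits of the chromatin assembly factor that deposits histones behind the fork, differed by -2.68 and -3.13. SLBP, which binds the stem-loop of histone transcripts, differed by -2.61, and UHRF1, which brings the maintenance methyltransferase to new DNA, by -2.21. After quantile normalization the values were -1.03, -1.44, -0.92 and -0.49, of which that of UHRF1 did not pass (limma adjusted p = 0.128).

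**Figure D2:**
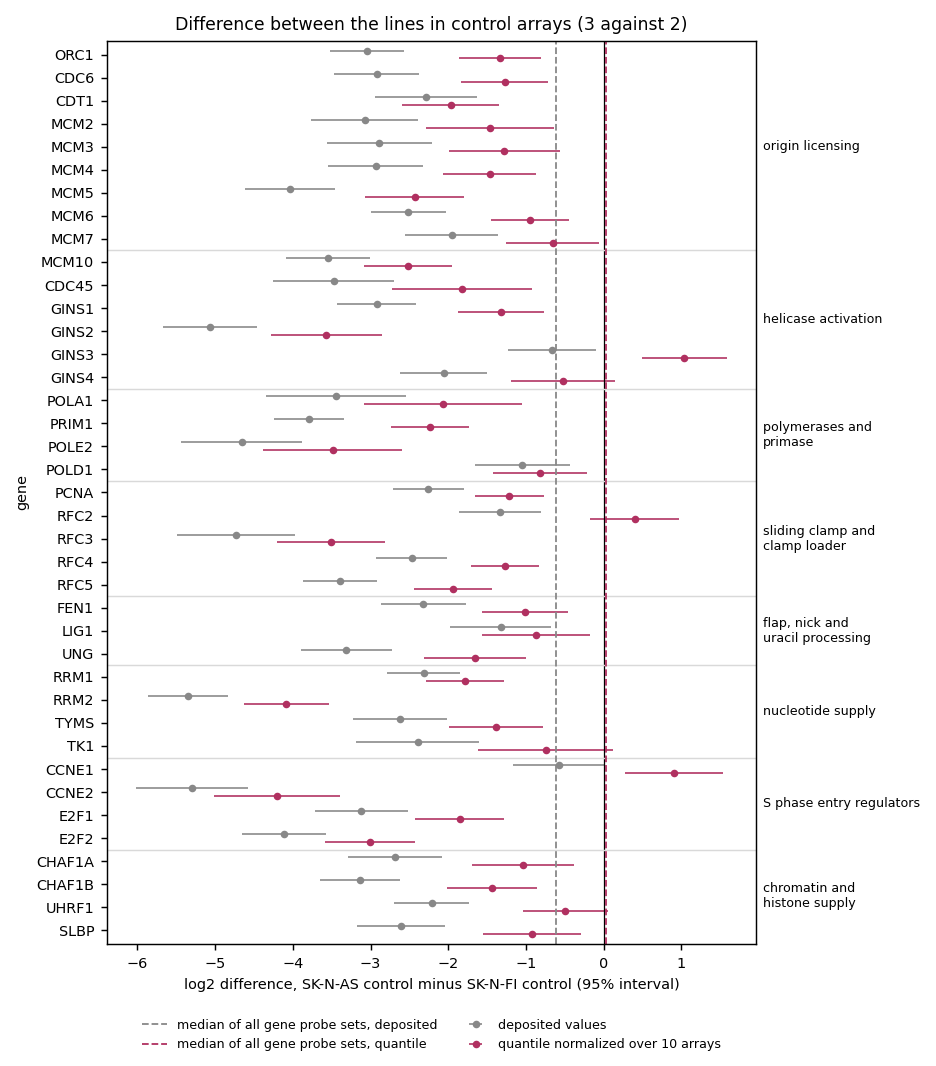
Log2 difference between the control arrays of the lines, SK-N-AS (3 arrays) minus SK-N-FI (2 arrays), for each gene by role, on the deposited scale (grey) and after quantile normalization over all arrays (red); points are estimates, bars their 95% intervals from limma, and dashed lines the medians of all gene probe sets (-0.61 and 0.04). All 39 points lie below 0 on the deposited scale, and GINS3, CCNE1 and RFC2 lie above 0 after quantile normalization.

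Replication genes outside these 39 were counted in the same way. Of 44 measured, 42 were lower in SK-N-AS controls on the deposited scale (median -2.89), and 31 were lower and 1 higher after quantile normalization (median -1.32). Of all gene probe sets 47.8% were called lower and 11.5% higher on the deposited scale, and 22.5% and 24.1% after quantile normalization. CDK2, the kinase partner of cyclin E, differed by -4.75 and -3.53, GMNN, encoding the licensing inhibitor geminin, by -4.48 and -2.90, and DTL, which targets CDT1 for destruction, by -4.37 and -2.93. POLD2, a subunit of polymerase delta, read 11.77 and 11.60 in SK-N-FI and 12.42, 11.48 and 11.87 in SK-N-AS on the deposited scale, where the arrays overlapped (0.24, limma adjusted p = 0.529). After quantile normalization it was higher in SK-N-AS by 1.71 (adjusted p = 0.000648). Of 36 such genes with a promoter window, 16 (44.4%) held the E2F-type motif.

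The same comparison was made between the treated cells of the lines. Its means share no array with those of the controls. Both comparisons came from 1 fit of all 10 arrays and share its estimate of spread, so their p-values are not independent. On the deposited scale 38 of the 39 genes were lower in SK-N-AS and 0 higher (background 47.8% lower and 11.2% higher), with a median of -2.83. After quantile normalization 31 were lower and 2 higher (background 21.9% and 23.5%), with a median of -1.28. Genes lower in both comparisons numbered 38 on the deposited scale and 31 after quantile normalization, where LIG1 was lower in controls only. CDT1 and POLD1, below background on every array, are in both counts, and LIG1 in the deposited one. GINS3 and CCNE1 were higher in both after quantile normalization. Across the 39 genes, which are not independent, the log2 differences of the 2 comparisons had a Pearson r of 0.98 on the deposited scale and 0.97 after quantile normalization. Both comparisons set the same lines against each other, and no treatment change was called within either line, as given below. A high r would follow from that and adds no separate support.

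RRM2 in treated cells read 13.87 and 13.90 in SK-N-FI and 8.32, 8.58 and 8.31 in SK-N-AS, a difference of -5.48 (limma adjusted p = 2.86e-09) and, after quantile normalization, of -4.19 (adjusted p = 1.13e-07). GINS2 read 11.59 and 11.50 against 7.04, 6.46 and 6.07 (-5.02 and -3.55), and CCNE2 9.51 and 9.78 against 4.43, 4.86 and 5.21 (-4.81 and -3.69). All 3 genes again had every SK-N-AS array below every SK-N-FI array. On the deposited scale that held for 11949 of all 21448 probe sets, and 3537 had the reverse. RFC3 differed by -4.63 and -3.43, POLE2 by -4.58 and -3.41 and E2F2 by -4.24 and -3.09. As bounds, CCNE2 was at least 6.72-fold, POLE2 at least 6.78-fold and E2F2 at least 5.51-fold lower on the deposited scale, and at least 2.28-fold, 2.28-fold and 1.90-fold after quantile normalization. GINS3 read 9.69 and 9.59 against 8.71, 8.68 and 8.83 and differed by -0.90 on the deposited scale (adjusted p = 0.00909) and by 0.78 after quantile normalization (adjusted p = 0.0243). Without SK-N-FI treated array 1 the calls of GINS3 (-0.86, adjusted p = 0.0573), POLD1 (-0.97, adjusted p = 0.0501) and LIG1 (-0.76, adjusted p = 0.125) were lost.

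BG-P1600-TAT was then compared with buffer within each line. In SK-N-FI limma called 0 of the 39 genes and 0 of 21448 probe sets (0%), and 0 of the 39 had an unadjusted p under 0.05. The log2 changes, treated minus control, ran from -0.39 to 0.28, with a median of -0.06 against -0.01 over all probe sets. All 39 intervals lay within 2-fold in either direction, which held for 84.9% of all probe sets. Smaller changes are not excluded by 2 arrays against 2.

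LIG1 had the lowest p of the genes with a lower mean, and its signals, below background, read 5.99 and 6.01 in control and 5.81 and 5.40 in treated SK-N-FI (-0.39, 95% interval -0.93 to 0.16). CDC45 read 10.91 and 10.62 against 10.51 and 10.31 (-0.36, -0.89 to 0.17), and GINS1 12.28 and 12.20 against 12.12 and 11.83 (-0.27, -0.78 to 0.25). The treated arrays of these 3 genes lay below the controls by less than the interval's width. Of genes with a higher mean, E2F2 read 8.97 and 9.18 against 9.61 and 9.10 (0.28, -0.31 to 0.87), MCM6 9.41 and 9.24 against 9.77 and 9.31 (0.21, -0.36 to 0.79) and RFC5 12.94 and 12.97 against 13.10 and 13.19 (0.19, -0.29 to 0.68). For E2F2 and MCM6 treated array 1 stood above the controls and treated array 2 between them. Leaving out 1 array moved the E2F2 change between 0.027 and 0.53 and the MCM6 change between -0.019 and 0.45, the sign turning without treated array 1. Such left-out values ran from -0.60 to -0.18 for LIG1, from -0.51 to -0.21 for CDC45 and from -0.41 to -0.12 for GINS1. In 9 of the 39 genes treated and control arrays did not overlap, 6 lower (CDC45, GINS1, RFC4, LIG1, TYMS, CHAF1B) and 3 higher (POLD1, RFC5, FEN1), where 27.8% of all probe sets did not (14% lower and 13.8% higher). All 4 nucleotide supply genes had a lower mean (changes of -0.07 to -0.17), and 51% of all probe sets did.

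In SK-N-AS limma likewise called 0 of the 39 genes and 0 of 21448 probe sets (0%), and 0 of the 39 had an unadjusted p under 0.05. Means were higher in treated cells for 20 genes and lower for 19, with a median log2 change of 0.00. The interval lay within 2-fold for 36 of 39 genes, and for 82.1% of all probe sets. CDC45, POLA1 and CCNE2 were the exceptions. On the deposited scale MCM6 alone had every treated above every control array, at 6.93, 7.10 and 7.09 against 6.92, 6.65 and 6.86 (0.23, 95% interval -0.21 to 0.67), where 7.31% of all probe sets did not overlap, 3.29% with treated higher. MCM6 was below background on control arrays 25 (6.92 against 7.23) and 26 (6.65 against 7.03), and near it on treated array 28 (6.93 against 6.92). The lowest treated and the highest control array of MCM6 were nearly equal, and after quantile normalization the arms overlapped, with control array 25 at 7.63 and treated array 28 at 7.56. Whether the SK-N-AS arrays hold separate cultures is not stated, and the spread behind their p-values may be technical.

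The intervals of the SK-N-AS genes with the smallest p all included 0, and those of POLA1 and CCNE2 reached beyond 2-fold. MCM10, below background on all 6 arrays, read 4.74, 4.93 and 5.07 in control and 4.24, 4.67 and 4.82 in treated cells (-0.34, 95% interval -0.85 to 0.18). RRM2 read 8.52, 8.94 and 8.63 against 8.32, 8.58 and 8.31 (-0.29, -0.77 to 0.18), and RRM1 12.87, 13.20 and 13.04 against 13.14, 13.30 and 13.50 (0.28, -0.19 to 0.74). In both reductase genes 1 treated array lay within the range of the controls, and their means moved in opposite directions without passing the test. SLBP read 9.06, 8.48 and 9.05 against 8.65, 8.94 and 8.27 (-0.25, -0.83 to 0.34). POLA1 read 5.39, 6.64 and 6.08 against 5.80, 6.70 and 7.27 (0.55, -0.39 to 1.50), and CCNE2 3.83, 5.01 and 4.44 against 4.43, 4.86 and 5.21 (0.41, -0.34 to 1.16). The last 3 genes varied within each arm by more than the arms differed, and leaving out 1 array moved the POLA1 change between 0.21 and 0.95, the CCNE2 change between 0.11 and 0.70 and the SLBP change between -0.44 and -0.072. The MCM10 change moved between -0.46 and -0.17, that of RRM2 between -0.38 and -0.17 and that of RRM1 between 0.18 and 0.36.

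PCNA, often used as a proliferation marker, had changes of 0.02 in SK-N-FI (95% interval -0.47 to 0.52) and 0.05 in SK-N-AS (-0.40 to 0.51). It read 14.10, 14.27, 14.21 and 14.20 over the SK-N-FI arrays and 11.76, 11.86, 12.16, 11.93, 12.03 and 11.98 over the SK-N-AS arrays, with treated and control values intermixed.

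**Figure D3:**
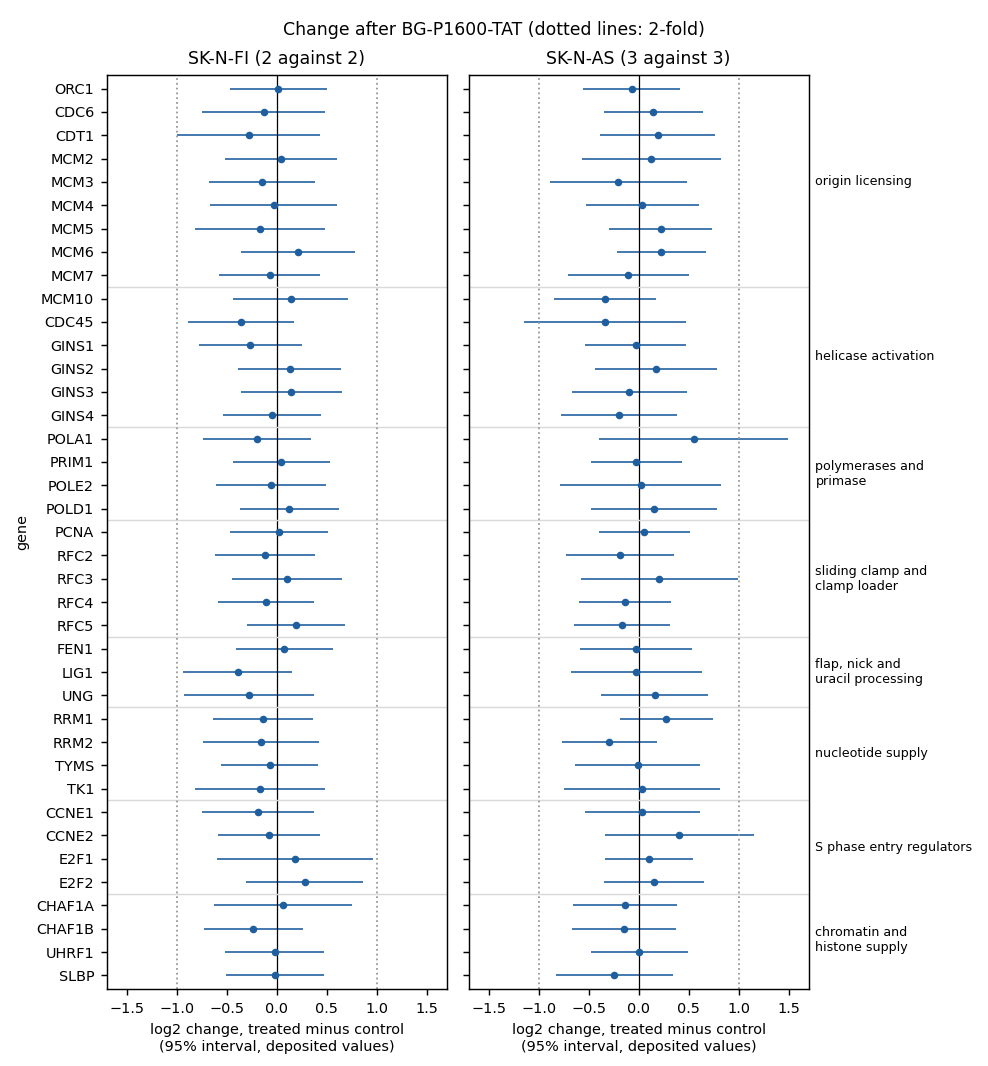
Log2 change after BG-P1600-TAT, treated minus control, of each gene by role in SK-N-FI (left, 2 arrays against 2) and SK-N-AS (right, 3 against 3), on the deposited scale; points are limma estimates, bars 95% intervals and dotted lines a 2-fold change. Every interval includes 0, and those of CDC45, POLA1 and CCNE2 in SK-N-AS pass the 2-fold lines.

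The treatment effects of the lines were compared by an interaction term (SK-N-AS effect less SK-N-FI effect), for which limma called 0 of the 39 genes and 0 of 21448 probe sets (0%), with 0 of the 39 at an unadjusted p under 0.05. The genes with the smallest p in either direction were POLA1 (0.75, 95% interval -0.53 to 2.03), MCM10 (-0.48, -1.24 to 0.29), UNG (0.44, -0.40 to 1.27), RRM1 (0.41, -0.25 to 1.08), RFC5 (-0.36, -1.03 to 0.31) and GINS3 (-0.24, -1.03 to 0.56). With 1 array left out the POLA1 estimate ran from 0.41 to 1.14 and that of UNG from 0.091 to 0.79, and GINS3 turned to 0.017 without SK-N-AS control array 27. The interval lay within 2-fold for 19 of 39 genes, against 36.6% of all probe sets, so that for the other genes a 2-fold difference of the effects was within the interval.

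These genes also varied between SK-N-AS arrays of the same arm, which was noticed in the values and is given as a description. Control array 25 minus the mean of 26 and 27, and treated array 28 minus the mean of 29 and 30, had the same sign in 33 of the 39 genes, 13 lower and 20 higher. Signs were opposite in 15.4% of these genes and in 37.5% of all probe sets. Across the 39 genes Pearson's r was 0.72 and Spearman's rho 0.61, and across all probe sets 0.51 and 0.38. The genes of one array share its RNA and hybridisation.

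Genes low on arrays 25 and 28 included POLA1 (-0.97 and -1.19), POLE2 (-1.02 and -0.90), RFC3 (-1.01 and -0.74), CCNE2 (-0.90 and -0.61) and MCM4 (-0.63 and -0.23). Of these, POLE2 and CCNE2 were above background on 0 of the 6 SK-N-AS arrays and POLA1 on 1, so their shifts are of dim signals. RFC3 and MCM4 were above it on all 6. Genes high on both included TK1 (0.90 and 0.58), MCM2 (0.89 and 0.33), MCM7 (0.71 and 0.26), GINS4 (0.63 and 0.33) and MCM3 (0.36 and 0.84). MCM2 was above background on 4 and GINS4 on 3 of the 6 SK-N-AS arrays, and TK1, MCM7 and MCM3 on all 6. The array pattern therefore ran in both directions within the MCM genes, low for MCM4 and high for MCM2, MCM3 and MCM7. PTPRC, the leukocyte marker CD45, read 6.01, 8.65 and 7.83 on arrays 25, 26 and 27 and 6.92, 7.68 and 9.09 on arrays 28, 29 and 30, also lowest on 25 and 28 within its arms. CD3E, CD14 and ITGAM, the other leukocyte markers measured, were above background on no array. The summed log2 signal of the 4 leukocyte markers ranged from 22.3 to 24.5 in SK-N-AS controls and from 22.4 to 24.6 in treated cells, against 19.0 to 20.4 and 20.7 to 22.6 in SK-N-FI. All but PTPRC in this sum were below background on every array, and the deposited scales of the lines differ. The sums therefore do not compare leukocyte content between the lines. What part any of these has in the array pattern was not tested. Without arrays 25 and 28 the count of genes called for treatment in SK-N-AS was again 0. No block was fitted in SK-N-AS, where array numbers do not recur between the arms. The array pattern therefore stays in the spread behind the SK-N-AS intervals and p-values.

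**Figure D4:**
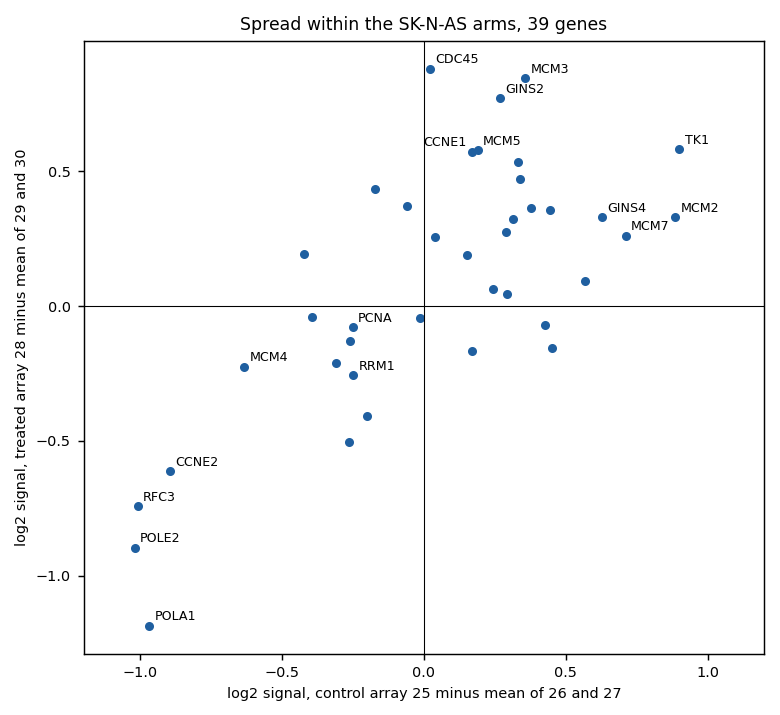
Each point is 1 of the 39 genes in SK-N-AS, with the log2 signal of control array 25 minus the mean of control arrays 26 and 27 on the horizontal axis and that of treated array 28 minus the mean of 29 and 30 on the vertical axis (deposited scale). Points lie mostly in the lower left (13 genes) and upper right (20 genes), with POLA1, POLE2, RFC3 and CCNE2 lowest on both axes and TK1 and MCM2 far to the right. POLE2 and CCNE2 were above background on no SK-N-AS array and POLA1 on 1.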

How the data were processed

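Total RNA was extracted with Trizol and labelled for 10 Affymetrix arrays by a whole-transcript protocol, per the labels' protocols. The authors deposited a log2 signal for each probe set. RMA and version 4.0.1.36 of Transcriptome Analysis Console appear, with no role given, in the submitters' processing notes, and the genome build is not given in the sources used here. RMA commonly equalises array distributions, so a change common to most genes would not be seen. The lines look to have been normalized separately, since their distributions differ and those within a line match.

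Of 24351 probe sets, 2903 controls were left out and 21448 gene probe sets were tested, of which 17709 had 1 gene symbol in the platform annotation and 3739 none. Groups came from sample titles. Treatment was tested within each line, and the lines and the difference of effects in a fit of 4 groups over 10 arrays, with limma 3.58.1 (lmFit, eBayes) in R 4.3.3, no covariate and a Benjamini-Hochberg threshold of 0.05. The fits were also run on simulated data with independent noise for each gene and array. Such data lack the array pattern seen in SK-N-AS, so that run cannot speak to it. For SK-N-FI the series design speaks of 3 replicates, and 2 arrays per condition were analysed. Array precision rests on the number of arrays.

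The genes and lists were chosen with earlier results of these data known. Genes named with array values were the 3 of smallest p per direction in each treatment test, the 6 largest between the lines and those whose called direction turned with the scaling. MCM5, MCM7, PRIM1, PCNA, RRM1, RFC2 and CCNE1 were added after their values were seen. Alternatives covered scaling, a filter on dim probe sets, eBayes settings, array weights, thresholds and the probe set chosen. They also covered a shared fit, a replicate block in SK-N-FI only, and left-out arrays. Since each gene had 1 probe set, the probe set alternative only repeats the main fit. Promoter sequences are from RefSeq, GRCh38.p14.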

Additional observations from a re-analysis of the deposited data

How the results depend on the processing

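The counts of genes called for treatment were 0 in SK-N-FI (10 alternatives), 0 in SK-N-AS (9) and 0 for the difference of effects (9), and 0 with each array left out in turn. The alternatives counted here and below include the choice of probe set, which could not change a result, since each gene had 1. In SK-N-FI, where both arms have arrays numbered 1 and 2, deviations of same-numbered arrays correlated at -0.17, so that the numbers do not show pairing. A fit with the replicate number as a block called 0 of the 39 genes, and one with crossed numbers, chosen after seeing the data, also called 0. Between the control arrays of the lines 31 to 39 genes were called over 10 alternatives and 37 to 38 with an array left out, and 29 to 39 and 37 to 38 were called lower. Between the treated arrays 32 to 38 were called (35 to 38 with an array left out), of which 30 to 38 lower (35 to 38). Genes called higher numbered 0 with any array left out and 2 under quantile normalization, with or without the filter on dim probe sets, in controls and in treated cells. The direction turned under quantile normalization, with and without that filter, for GINS3 (1.04 in controls and 0.78 in treated cells), CCNE1 (0.90 and 1.05) and RFC2 (0.40 and 0.29), and with array medians set equal also for GINS3 in controls (0.18) and CCNE1 in controls and treated cells (0.26 and 0.48, neither called). The call for GINS3 in controls was also lost with array weights (-0.51, limma adjusted p = 0.0827) and without arrays 25 and 28 (-0.53, adjusted p = 0.117), left out after seeing the data. The small number of arrays and signals below the negative controls limit every value. Differences between the lines rest on the scaling chosen, and quantile normalization assumes equal distributions. In SK-N-AS the separate origin of the arrays is not stated.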
